A study of Mus musculus with 8 samples.

Results

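The genes described here are 8 genes of the thick ascending limb of the loop of Henle, the kidney segment that reabsorbs salt without water and secretes uromodulin. They were chosen by symbol, as Slc12a1, Kcnj1, Bsnd, Umod, Egf, Casr, Ptger3 and Tmem207, and each matched 1 row of the 21759 genes in the table. Bulk RNA sequencing was done on kidneys of 8 male mice aged 8 months, all of them knock-in animals of a model of MUC1 kidney disease. In this inherited disease a frameshift in MUC1 makes an abnormal protein that is retained in the secretory pathway. A group of 4 mice received saline as vehicle and a group of 4 received BRD4780, a small molecule known for acting on the cargo receptor TMED9, at 50 mg/kg, each daily for 7 days. Both groups carried the disease allele, which the labels describe no further than as a knock-in. The comparison is therefore of BRD4780 with vehicle in kidneys of knock-in mice. RNA came from a sagittal piece of kidney holding all cell types, and in such bulk RNA fewer cells of a type and less RNA per cell cannot be told apart. The 8 genes were not measured by segment, so a change in any of them cannot be assigned to the thick ascending limb alone. Each library is named by its group and a number from 1 to 4, and equal numbers do not link mice.

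Salt enters cells of the thick ascending limb from the urine through the cotransporter NKCC2, the product of Slc12a1. Potassium returns to the urine through the channel ROMK (Kcnj1), and chloride leaves on the blood side through channels that need the subunit barttin (Bsnd). Loss of any of these functions causes Bartter syndrome in people. The same cells make uromodulin (Umod), the most abundant protein of normal urine, and sense calcium through the receptor CaSR (Casr). Prostaglandin E2 acts on them through the EP3 receptor (Ptger3). The precursor of epidermal growth factor (Egf) is made in the thick ascending limb and the distal convoluted tubule. Tmem207 encodes a membrane protein of the kidney.

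Libraries of the vehicle group held 16635516 to 28547741 counts and those of the BRD4780 group 5738634 to 28176621. BRD4780 replicate 4 was the shallowest, and even there the least counted of these genes, Tmem207, had 94 counts. On the first principal component of the 1000 most variable genes, with 38.4% of their variance, BRD4780 replicate 4 stood at -45.0 and replicate 3 at 2.86. The other treated libraries lay between at -15.0 and -13.0, and the vehicle libraries at 14.03 to 21.5. Results are therefore given with and without BRD4780 replicates 3 and 4. Levels are CPM, counts scaled to a common library total, with totals scaled by TMM, a normalization for library composition.

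The stretches upstream of the annotated starts of Kcnj1, Umod and Tmem207 are shown because these were the members with the largest fitted decreases among those with a sequence entry. Of the 8 genes 7 had an entry in the RefSeq promoter table (GRCm38.p6), and Bsnd was not among them. Bases run 5′ to 3′ along the gene, from 250 bases before the RefSeq start, and stop where an annotated GENCODE M21 exon begins. Capitals mark matches, on either strand, to 5 short motifs that were searched for: TATAAA (the TATA box core), GTTAAT (a homeodomain half-site), AAGGTCA (an estrogen-related receptor half-site), TGTTCT (a glucocorticoid receptor half-site) and TGACG (a CREB half-site). The Kcnj1 stretch lies at chr9:32393735-32393984, plus strand. It precedes a RefSeq start inside the GENCODE span of the gene (32372493 to 32399197), so it does not lie in front of the whole gene. The Umod stretch lies at chr7:119479283-119479512, minus strand, and the Tmem207 stretch at chr16:26526772-26527021, minus strand.
Kcnj1: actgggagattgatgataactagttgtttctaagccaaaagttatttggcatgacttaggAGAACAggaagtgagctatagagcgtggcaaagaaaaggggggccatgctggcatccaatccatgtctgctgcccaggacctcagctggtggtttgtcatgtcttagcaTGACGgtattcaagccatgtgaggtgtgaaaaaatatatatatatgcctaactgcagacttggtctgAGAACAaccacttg
Umod: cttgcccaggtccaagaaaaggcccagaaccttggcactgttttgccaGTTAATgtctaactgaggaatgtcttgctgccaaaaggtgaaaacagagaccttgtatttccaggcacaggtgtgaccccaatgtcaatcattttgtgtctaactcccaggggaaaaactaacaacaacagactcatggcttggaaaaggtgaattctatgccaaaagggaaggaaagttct
Tmem207: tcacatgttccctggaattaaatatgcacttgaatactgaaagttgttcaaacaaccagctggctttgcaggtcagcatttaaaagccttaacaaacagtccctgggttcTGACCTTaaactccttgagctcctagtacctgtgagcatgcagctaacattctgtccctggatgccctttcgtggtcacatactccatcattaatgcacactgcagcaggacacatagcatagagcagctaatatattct
Kcnj1 held 2 matches to TGTTCT, read as AGAACA, at -190 to -185 and -14 to -9 from the start, and TGACG at -81 to -77. Umod held GTTAAT at -202 to -197, and Tmem207 held AAGGTCA, on the reverse strand, at -140 to -134. Of 32851 windows of the same length over all genes in the table, 16.1% held TGTTCT, 17.8% TGACG, 6.43% GTTAAT, 4.08% AAGGTCA and 12.4% TATAAA. The windows of the other 4 genes with an entry held no match. These matches describe letters and do not show binding.

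Among the salt transport genes, Kcnj1 and Bsnd fell with BRD4780, and these were the 2 of the 8 genes past the threshold (adjusted p under 0.05 over 13474 genes, edgeR's quasi-likelihood test). Over all genes tested, 0.623% were lower and 2.3% were higher at that threshold. None of the 8 genes was higher at that threshold, at an unadjusted p under 0.05 or by DESeq2 (0 in each), while 4 were lower at an unadjusted p under 0.05 and 4 by DESeq2. Over all genes tested, 10.7% were lower and 13.9% higher at that unadjusted p, and DESeq2 called 3.8% lower and 6.39% higher. Their median log2 fold change was -0.41, against 0.01 over all genes tested, and it was negative in 7 of 8.

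Kcnj1 (ENSMUSG00000041248, chromosome 9, 32372493 to 32399197, plus strand, mm10) stood at 240.3, 212, 178 and 193 CPM in vehicle replicates 1 to 4. In BRD4780 replicates 1 to 4 it stood at 115, 103, 129 and 134 CPM. Every treated library lay below every vehicle library, which was so for 5.16% of all genes tested, while 7.44% had every treated library above every vehicle library. The vehicle mean was 205.9 ± 26.8 CPM and the treated mean 120.5 ± 13.9 CPM (SD, n = 4 mice each). The fitted level fell by 41.6%, a log2 fold change of -0.78 ± 0.11 (SE; adjusted p = 0.0121), and by p-value it ranked 40 of all genes. Kcnj1 had an adjusted p = 0.00156 without BRD4780 replicate 3 and 0.033 without replicate 4. Omitting vehicle replicate 2 or BRD4780 replicate 1 ended the call, with log2 fold changes of -0.76 and -0.75 (adjusted p = 0.0569 and 0.051).

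Bsnd (ENSMUSG00000025418, chromosome 4, 106483456 to 106492283, minus strand) stood at 72.9, 65.6, 76.0 and 58.8 CPM in vehicle replicates 1 to 4 and at 52.6, 54.1, 42.9 and 50.03 CPM in BRD4780 replicates 1 to 4. The groups did not overlap, though vehicle replicate 4 lay close to the upper treated libraries. The fitted level of Bsnd fell by 27.0%, a log2 fold change of -0.45 ± 0.10 (SE; adjusted p = 0.0482), close to the threshold. It had a log2 fold change of -0.38 without BRD4780 replicate 3 (adjusted p = 0.0177) and -0.45 without replicate 4 (adjusted p = 0.12). The call was also lost without vehicle replicate 1, 2 or 3 or BRD4780 replicate 1 or 2, with adjusted p-values from 0.0919 to 0.14 over all 6 such omissions.

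Slc12a1 (ENSMUSG00000027202, chromosome 2, 125152505 to 125230002, plus strand) did not pass the threshold. It stood at 799, 809, 693 and 558 CPM in vehicle replicates 1 to 4. In BRD4780 replicates 1 to 4 the values were 589, 455, 345 and 821 CPM, so the treated group held both the lowest and the highest library of all 8. The log2 fold change of Slc12a1 was -0.37 with a 95% interval of -0.89 to 0.14 (adjusted p = 0.34). Without BRD4780 replicate 3 it was -0.21 (adjusted p = 0.46) and without replicate 4 it was -0.63 (adjusted p = 0.16). The spread among treated mice (SD of 205.0 CPM) was larger than the difference between the group means, 715 and 552 CPM.

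**Figure D1:**
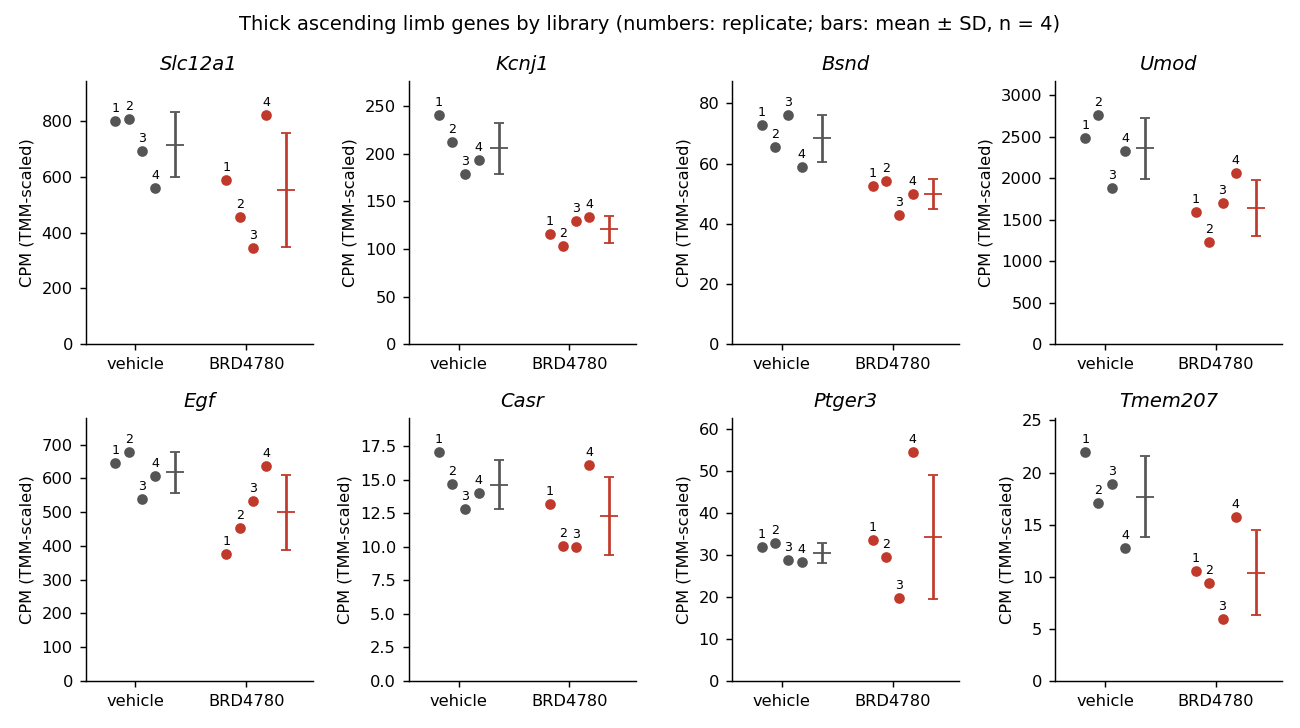
Level of each of the 8 genes in every library (y axis, CPM from 0; x axis, group), with points numbered by replicate and bars for the mean ± SD of 4 mice. Kcnj1 and Bsnd are the 2 genes whose treated points all lie below the vehicle points, and BRD4780 replicate 4 is the highest treated point in 7 panels, Bsnd being the exception.

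The 2 secreted products had lower means with BRD4780 but overlapping groups or no call. Umod (ENSMUSG00000030963, chromosome 7, 119462711 to 119479282, minus strand) stood at 2488, 2759.7, 1882 and 2329.7 CPM in vehicle replicates 1 to 4 and at 1595, 1237, 1698 and 2059 CPM in BRD4780 replicates 1 to 4. The groups overlapped only where BRD4780 replicate 4 exceeded vehicle replicate 3. Umod was at a log2 fold change of -0.52 ± 0.16 (SE; 95% interval -0.89 to -0.16; adjusted p = 0.0974), a percent change of -30.4% that did not pass the threshold. It passed without BRD4780 replicate 3 (log2 fold change -0.54, adjusted p = 0.043), not without replicate 4 (-0.65, adjusted p = 0.11), and it passed by DESeq2 (adjusted p = 0.0202). Exons of Umod overlap an annotated gene on the opposite strand, Gm44588, and those of Egf overlap 6330410L21Rik and Gm42697, which matters if counting ignored strand.

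Egf (ENSMUSG00000028017, chromosome 3, 129677565 to 129755316, minus strand) stood at 645, 678, 539.5 and 608 CPM in vehicle replicates 1 to 4. BRD4780 replicates 1 to 4 had 376, 452, 534 and 636 CPM, of which replicate 4 lay within the vehicle range and the others below it. The log2 fold change of Egf was -0.31 with a 95% interval of -0.64 to 0.03 (adjusted p = 0.23). Without BRD4780 replicate 3 it was -0.34 (adjusted p = 0.14), and without replicate 4 it was -0.44 (adjusted p = 0.16).

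Neither receptor gene passed the threshold. Casr (ENSMUSG00000051980, chromosome 16, 36493696 to 36562141, minus strand) stood at 17.0, 14.7, 12.8 and 13.97 CPM in vehicle replicates 1 to 4 and at 13.2, 10.03, 9.95 and 16.1 CPM in BRD4780 replicates 1 to 4. The groups overlapped, and the log2 fold change was -0.28 with a 95% interval of -0.65 to 0.08 (adjusted p = 0.31). It was -0.20 without BRD4780 replicate 3 and -0.41 without replicate 4 (adjusted p = 0.395 and 0.202).

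Ptger3 (ENSMUSG00000040016, chromosome 3, 157566892 to 157645888, plus strand) was the 1 gene of the 8 with a positive log2 fold change. The vehicle libraries lay close together at 32.0, 32.9, 28.8 and 28.2 CPM in replicates 1 to 4. BRD4780 replicates 1 to 4 spread from below to above them, at 33.6, 29.4, 19.7 and 54.5 CPM. The log2 fold change was 0.13 with a 95% interval of -0.40 to 0.66 (adjusted p = 0.77). Its sign depended on 1 library, since it was -0.15 without BRD4780 replicate 4 (adjusted p = 0.64) and 0.32 without replicate 3 (adjusted p = 0.22).

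Tmem207 (ENSMUSG00000091972, chromosome 16, 26503656 to 26526769, minus strand) had the most negative log2 fold change of the 8 genes and did not pass the threshold. It stood at 21.97, 17.1, 18.9 and 12.7 CPM in vehicle replicates 1 to 4 and at 10.6, 9.36, 5.93 and 15.7 CPM in BRD4780 replicates 1 to 4. The overlap came from vehicle replicate 4, which lay below BRD4780 replicate 4. The log2 fold change of Tmem207 was -0.83 ± 0.26 (SE; 95% interval -1.40 to -0.25; adjusted p = 0.0965). It was -0.64 without BRD4780 replicate 3 (adjusted p = 0.0538) and -1.04 without replicate 4 (adjusted p = 0.09), and it passed by DESeq2 (adjusted p = 0.0252).

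Levels of different genes were compared per length, as CPM per kilobase of the longest coding transcript in GENCODE M21. Umod was the most abundant, at 901 ± 140.0 CPM per kilobase with vehicle and 628 ± 129 with BRD4780 (SD, n = 4 mice each). Slc12a1 followed at 151 ± 24.6 with vehicle and Egf at 129.7 ± 12.5 CPM per kilobase, and the libraries of these neighbours overlapped in both groups. Kcnj1 stood at 67.0 ± 8.7 CPM per kilobase with vehicle. Bsnd at 24.8 ± 2.8 and Tmem207 at 23.1 ± 5.1 CPM per kilobase overlapped in both groups. Ptger3 at 9.68 ± 0.73 CPM per kilobase lay below Tmem207 in every vehicle library but overlapped with it in the BRD4780 group, and Casr was the lowest at 3.23 ± 0.40 CPM per kilobase. The pairs Umod and Slc12a1, Egf and Kcnj1, Kcnj1 and Bsnd, and Ptger3 and Casr did not overlap in either group.

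**Figure D2:**
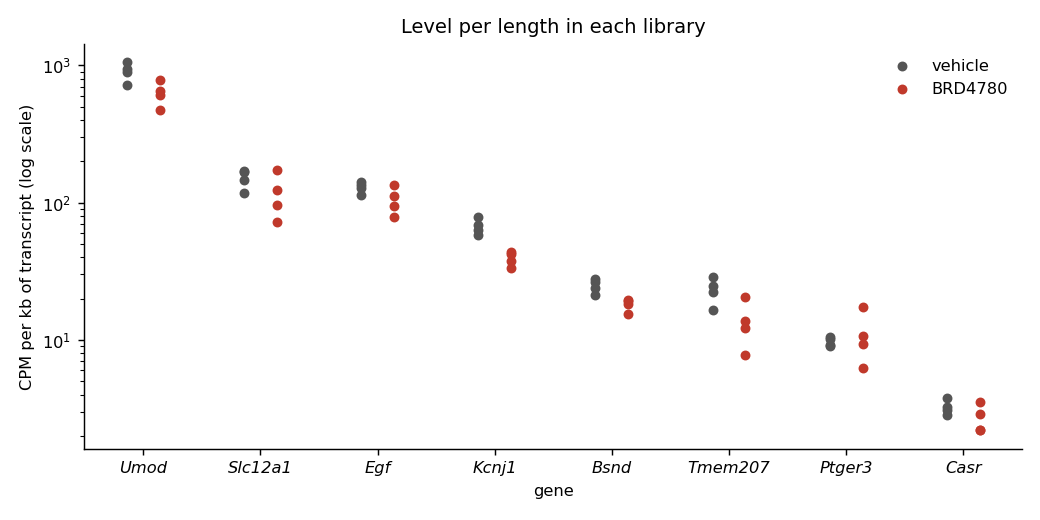
Level per kilobase of transcript (y axis, log scale) of the 8 genes in each of 4 vehicle and 4 BRD4780 libraries, ordered by the vehicle mean. Umod stands above the other genes in every library, and Casr is the lowest gene in the vehicle group at 3.23 CPM per kilobase.

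The genes mostly shifted to the same side within a library, but by differing amounts. In BRD4780 replicates 1, 2 and 3, 7, 8 and 8 of the 8 genes lay below their vehicle mean. Vehicle replicates 1 to 4 had 0, 2, 6 and 8 such genes. The mean of the 8 log2 levels, relative to each gene's vehicle mean, was between -0.16 and 0.16 in the vehicle libraries. In BRD4780 replicates 1, 2 and 3 it was -0.43, -0.60 and -0.72. In BRD4780 replicate 4 it was -0.02, inside the vehicle range, with 4 of 8 genes below their vehicle mean. Even in that library Kcnj1 was at -0.61 and Bsnd at -0.44 (log2 CPM relative to the vehicle mean), while Ptger3 was at 0.84 and Slc12a1 at 0.21. BRD4780 replicate 3 gave another order, with Tmem207 at -1.54 and Slc12a1 at -1.04 as the lowest and Egf at -0.21 as the highest. In BRD4780 replicates 1 and 2 the lowest was Kcnj1, at -0.83 and -0.98. Summed over the 8 genes, the level was 3429 to 4589 CPM in the vehicle libraries and 2351 to 3786 CPM in the BRD4780 libraries.

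**Figure D3:**
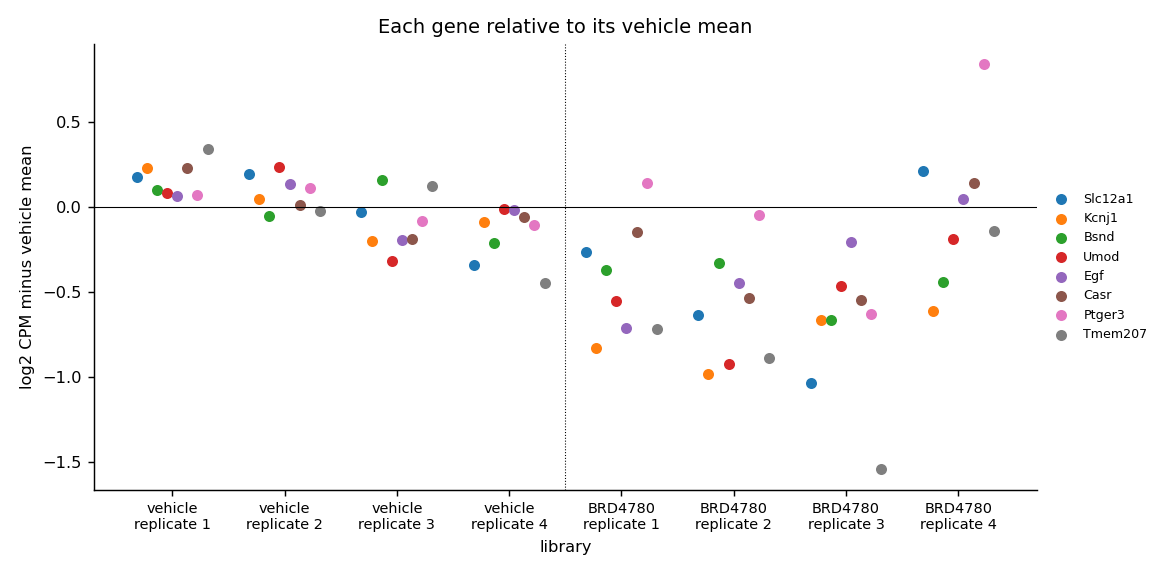
Log2 CPM of each gene minus its vehicle mean (y axis) in each library (x axis), with 1 colour per gene and the dotted line between the groups. Kcnj1 is at -0.61 or below in all 4 BRD4780 libraries, while Slc12a1 runs from -1.04 to 0.21 and Ptger3 from -0.63 to 0.84.

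To compare the genes with a common reference inside each library, the log2 ratio of each of the other 7 to Slc12a1 was taken. This ratio does not depend on library scaling, but it moves with Slc12a1 itself. Relative to its vehicle mean, log2 CPM of Slc12a1 stood at -0.26, -0.64, -1.04 and 0.21 in BRD4780 replicates 1 to 4. The share of all genes whose ratio to Slc12a1 separates the groups was not computed. Ptger3 relative to Slc12a1 was higher in every treated library, at -4.13, -3.95, -4.13 and -3.91 in BRD4780 replicates 1 to 4, against -4.64, -4.62, -4.59 and -4.30 in vehicle replicates 1 to 4. The mean log2 ratio differed by 0.51 (exact two-sided permutation p = 0.0286, the smallest that 4 against 4 allows, and 0.1 adjusted over 7 ratios). Tmem207 relative to Slc12a1 was lower in every treated library, at -5.80, -5.60, -5.85 and -5.70 against -5.18, -5.57, -5.19 and -5.45. Its mean log2 ratio differed by -0.39 (exact two-sided permutation p = 0.0286, and 0.1 adjusted). Neither of these ratios passed after adjustment. Both kept their sign when any 1 library was left out, from 0.47 to 0.59 for Ptger3 and from -0.46 to -0.34 for Tmem207.

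The ratios of the other 5 genes overlapped between the groups. Kcnj1 relative to Slc12a1 stood at -1.73, -1.93, -1.96 and -1.53 in vehicle replicates 1 to 4 and at -2.35, -2.14, -1.41 and -2.61 in BRD4780 replicates 1 to 4. It lay below the vehicle range in 3 treated libraries and above it in replicate 3, the library with the lowest Slc12a1 (difference -0.34, exact permutation p = 0.26, 0.6 adjusted over 7 ratios). For Bsnd, Umod, Egf and Casr the differences in log2 ratio were -0.02, -0.10, 0.10 and 0.16 (exact permutation p from 0.4 to 0.94, adjusted p from 0.7 to 0.94).

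**Figure D4:**
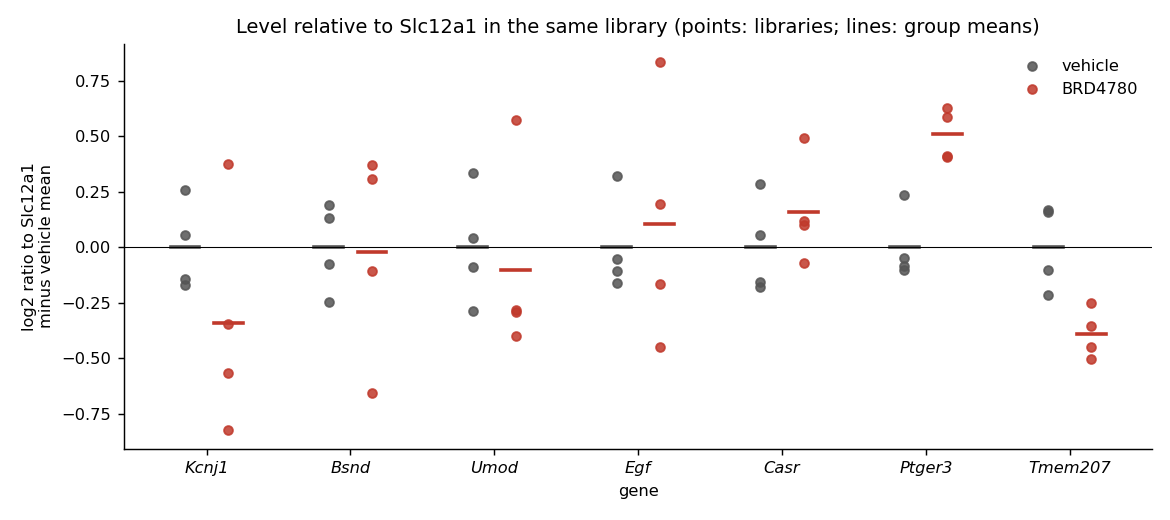
Log2 ratio of each gene to Slc12a1 in the same library, minus the vehicle mean of that ratio (y axis), with points for the 4 libraries of each group and lines for group means. The groups lie apart for Ptger3 (mean difference 0.51) and Tmem207 (-0.39) and overlap for the other 5 genes.

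Other genes that work with these 8 in the thick ascending limb (TAL) were taken from 6 lists. Of their 72 tested genes besides the 8, 4 were lower and 2 higher, where 0.623% of all genes tested were lower and 2.3% higher. The median log2 fold change of the 72 was -0.10, against 0.01 over all genes tested. The lower genes were the claudin gene Cldn19 and the transcription factor genes Pou3f3, Irx1 and Tfap2b. The higher genes were the potassium channel gene Kcnt1 and Vamp2, a vesicle fusion gene. For the list counts that follow, the shares over all genes tested at an unadjusted p under 0.05 were 10.7% lower and 13.9% higher. By DESeq2 they were 3.8% lower and 6.39% higher.

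In the list of ion transport genes, 2 of 13 were lower, which were Kcnj1 and Bsnd, and 1 was higher (median log2 fold change -0.23). Kcnt1, which encodes a sodium-activated potassium channel best known from neurons, rose from 19.2 ± 1.9 to 60.6 ± 24.4 CPM (SD over 4 mice; log2 fold change 1.65, adjusted p = 0.0198), with BRD4780 replicate 3 the lowest treated library at 27.2 CPM. The Kcnt1 call was lost in 6 of the 8 omissions of 1 library (vehicle replicates 1 to 3, BRD4780 replicates 1, 2 and 4), with adjusted p-values from 0.0523 to 0.0762. The basolateral potassium channel genes, chosen after their values were seen, had log2 fold changes of -0.42 for Kcnj10 (adjusted p = 0.11) and 0.01 for Kcnj16 (adjusted p = 0.98).

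In the list of paracellular genes, which line the route of calcium and magnesium between the cells, 1 of 12 was lower and 0 higher (median -0.20). There 5 were lower and 2 higher at an unadjusted p under 0.05, and 3 lower and 1 higher by DESeq2. Cldn19, mutated in an inherited loss of magnesium, stood at 65.8, 58.4, 52.1 and 41.1 CPM in vehicle replicates 1 to 4 and at 32.3, 26.5, 20.8 and 37.5 CPM in BRD4780 replicates 1 to 4. The groups did not overlap, and its log2 fold change was -0.92 ± 0.19 (SE; adjusted p = 0.0352). This call was lost without vehicle replicate 1, 2 or 3 or BRD4780 replicate 1, 2 or 4 (adjusted p from 0.0511 to 0.11). Cldn10, the sodium-selective claudin gene of the segment, had 232 ± 29.7 and 173 ± 16.8 CPM (SD over 4 mice; adjusted p = 0.0629), past the threshold by DESeq2 and without vehicle replicate 4 or BRD4780 replicate 3 (adjusted p = 0.00797, 0.0447 and 0.00765).

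Among 12 transcription factor genes 3 were lower and 0 higher (median -0.31), with 0 higher also at an unadjusted p under 0.05 and by DESeq2. Pou3f3, a gene needed for development of the loop of Henle, stood at 73.9, 77.4, 74.1 and 64.0 CPM in vehicle replicates 1 to 4. In BRD4780 replicates 1 to 4 it stood at 42.5, 47.2, 45.7 and 41.8 CPM, so that the groups lay far apart with little spread inside them. Its log2 fold change was -0.70 ± 0.08 (SE; adjusted p = 0.0042), and the call was kept in all 8 omissions of 1 library (adjusted p from 0.000734 to 0.0267). Irx1, an Iroquois homeobox gene, stood at 47.0, 44.3, 37.2 and 32.7 CPM in vehicle replicates 1 to 4 and at 21.2, 18.7, 24.5 and 22.6 CPM in BRD4780 replicates 1 to 4 (log2 fold change -0.90 ± 0.13 SE, adjusted p = 0.0121). Omitting vehicle replicate 2 ended the Irx1 call (adjusted p = 0.0569). Tfap2b, an AP-2 gene of the distal nephron, fell from 36.9 ± 2.9 to 24.7 ± 4.0 CPM (SD over 4 mice; adjusted p = 0.0352), a call lost without any 1 vehicle library or BRD4780 replicate 2 or 4 (adjusted p from 0.054 to 0.11).

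The remaining lists held 1 call. None of 12 genes for hormone receptors and cyclic AMP signalling passed (median -0.09), with 1 lower and 1 higher at an unadjusted p under 0.05, and 1 lower and 0 higher by DESeq2. Closest was Prkaca, the catalytic subunit of protein kinase A, at 94.0 ± 6.8 and 70.2 ± 9.8 CPM (SD over 4 mice; adjusted p = 0.0563). Prkaca passed by DESeq2 (adjusted p = 0.00874), after thinning to equal totals (adjusted p = 0.0379) and without BRD4780 replicate 3 (adjusted p = 0.0016). Pde4d, a phosphodiesterase that breaks down cyclic AMP, stood at 20.3 ± 2.6 and 26.8 ± 3.5 CPM (SD over 4 mice; adjusted p = 0.0974).

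Of 19 genes for the kinases and trafficking of NKCC2, 1 was higher and 0 lower (median 0.05), with 1 lower and 4 higher at an unadjusted p under 0.05, and 0 lower and 2 higher by DESeq2. Vamp2 rose from 52.1 ± 5.6 to 75.8 ± 9.1 CPM (SD over 4 mice; adjusted p = 0.0337), a call lost without vehicle replicate 1, 2 or 3 or BRD4780 replicate 1, 2 or 4 (adjusted p from 0.0911 to 0.11). Maged2, mutated in a transient antenatal Bartter syndrome, stood at 22.5 ± 2.0 and 30.8 ± 4.2 CPM (SD over 4 mice; adjusted p = 0.0629). It passed by DESeq2 (adjusted p = 0.0167) and without BRD4780 replicate 3 (adjusted p = 0.00322). None of 11 tested genes for the processing and receptors of uromodulin and EGF passed (median -0.20), a list that also holds Umod and Egf. There 5 were lower and 0 higher at an unadjusted p under 0.05, and 2 lower and 0 higher by DESeq2. Umod is in both counts of lower genes. Erbb2, a partner of the EGF receptor, stood at 100.9 ± 7.1 and 77.6 ± 9.5 CPM (SD over 4 mice; adjusted p = 0.0662), and passed by DESeq2 and without BRD4780 replicate 3 (adjusted p = 0.0113 in each).

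**Figure D5:**
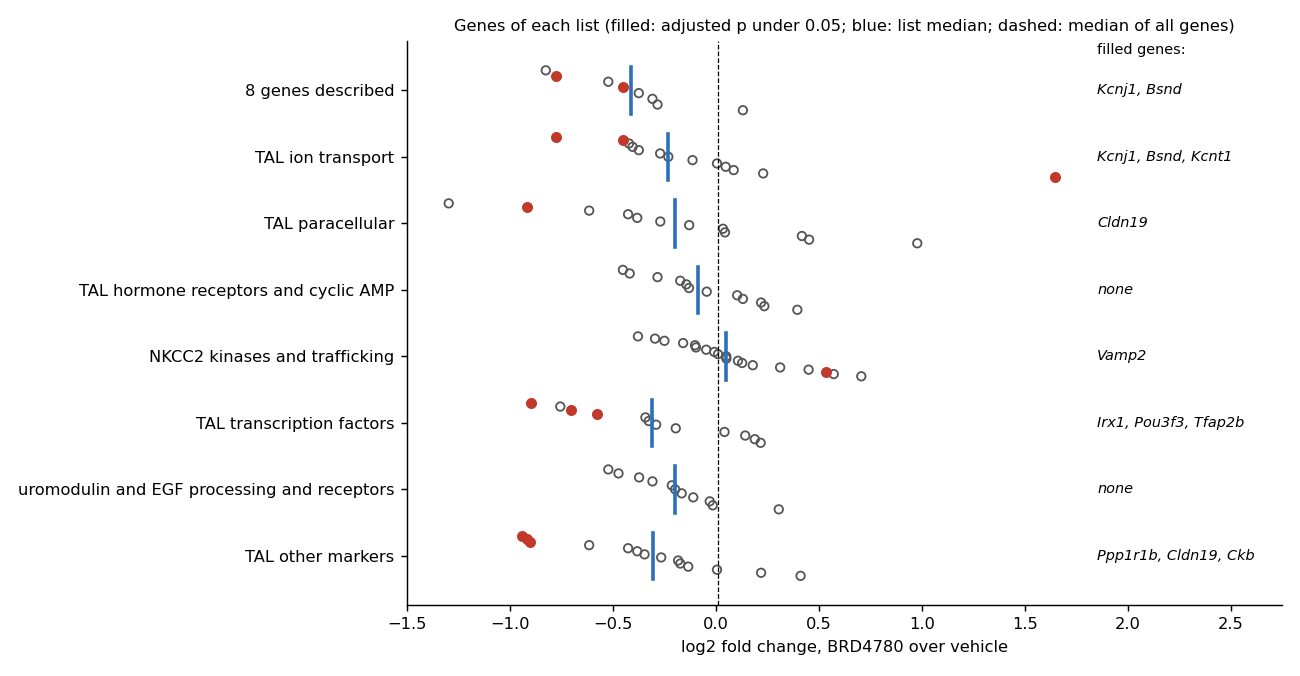
Log2 fold change of each tested gene (x axis) in the 8 genes described, the 6 TAL lists and a list of TAL markers that shares 4 genes with them (rows), where filled points have an adjusted p under 0.05 and are named at the right. The median of the 8 genes (-0.41) lies further below that of all genes tested (dashed line, 0.01) than the medians of the other lists, and Kcnt1 and Vamp2 are the filled points above 0.

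The segment was also read from other markers. Of 14 TAL markers, of which Cldn10, Cldn16, Cldn19 and Kcnj16 are also in the lists above, 3 were lower and 0 higher (median log2 fold change -0.31), with 0 higher also at an unadjusted p under 0.05 and by DESeq2. They were Cldn19, already counted above, the brain-type creatine kinase gene Ckb and the phosphatase inhibitor gene Ppp1r1b. Ckb fell from 131 ± 20.4 to 70.6 ± 13.7 CPM (SD over 4 mice; adjusted p = 0.0192) and Ppp1r1b from 91.2 ± 22.4 to 47.9 ± 8.0 CPM (SD over 4 mice; adjusted p = 0.0293). The Ckb call was lost without vehicle replicate 1, 2 or 3 or BRD4780 replicate 1 (adjusted p from 0.0509 to 0.0744), and that of Ppp1r1b without these or BRD4780 replicate 2 (adjusted p from 0.0622 to 0.1). The summed level of these markers was 1829.5 to 2283 CPM with vehicle and 1682 to 1959.6 CPM with BRD4780, so the groups overlapped.

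Markers of neighbouring and other cell types moved in the same libraries, and their part in the results on the 8 genes was not tested. Over 14 such lists with 109 tested genes that are in no TAL list, 0 were lower and 6 higher (median -0.02). Over all genes tested, 0.623% were lower and 2.3% higher. Podocyte markers had 3 of 9 higher (8 at an unadjusted p under 0.05), with a summed level of 141 to 230.1 CPM in vehicle libraries and 292 to 396 CPM in BRD4780 libraries, and endothelial markers 2 of 9 (also 8 at an unadjusted p under 0.05), at 133 to 246 and 281 to 346 CPM. Among them Nphs1, the podocyte slit diaphragm gene, rose from 4.80 ± 2.02 to 19.7 ± 3.75 CPM (SD over 4 mice; adjusted p = 0.0114), a call that ended without vehicle replicate 2 (adjusted p = 0.0569). The distal convoluted tubule, the next segment, had 1 of 9 markers higher, at summed levels of 1237 to 1687 and 1456 to 2200.2 CPM. This was the magnesium channel gene Trpm6, which rose from 18.5 ± 2.5 to 34.1 ± 10.1 CPM (SD over 4 mice; adjusted p = 0.0452). The Trpm6 call was lost without any 1 library other than BRD4780 replicate 3 (adjusted p from 0.0544 to 0.14). Of these 9 markers, 3 were higher and 0 lower at an unadjusted p under 0.05 (median log2 fold change 0.19). By DESeq2, 2 were higher and 0 lower. Markers of the principal cells of the collecting duct had 0 of 9 past the threshold, 3 lower at an unadjusted p under 0.05 and 2 lower by DESeq2, with summed levels of 807 to 1284 and 565 to 1121 CPM. Their lowest library was BRD4780 replicate 3, which was also the lowest of all 8 libraries in Slc12a1, Bsnd, Casr, Ptger3 and Tmem207. Erythrocyte markers had 0 of 3 past the threshold and 3 lower at an unadjusted p under 0.05 (median log2 fold change -1.39), with summed levels of 477 to 1576 and 154 to 782 CPM and 0 called by DESeq2. Adipocyte markers had 0 of 5 past it and 2 lower at an unadjusted p under 0.05 (median -1.82), at 75.1 to 216 and 56.6 to 161 CPM, also with 0 called by DESeq2. Proximal tubule markers summed to 27825 to 29899 CPM with vehicle and to 22807 to 33534 CPM with BRD4780, where replicate 3 was the highest. No marker in these lists was at 0 in all 8 libraries.

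The genes with the profile most like that of Kcnj1 over the 8 libraries were sought among 11568 tested genes whose log2 CPM averaged 1 or more, by the root mean square distance of log2 levels relative to the vehicle mean. They were Irx1 at a distance of 0.13, the pseudokinase gene Trib2 at 0.13 and the thyroid hormone receptor gene Thra at 0.14 (log2 units). Trib2 had 108.6 ± 11.6 CPM with vehicle and 62.3 ± 5.4 with BRD4780, and Thra 33.3 ± 2.9 and 19.4 ± 2.7 CPM (SD, n = 4 mice each). For Bsnd the nearest were Il17re at 0.07, Lmo2 at 0.09 and Ccdc117 at 0.11, each with lower values in every BRD4780 library than in any vehicle library. As the distance is smallest for genes that shift alike between the groups, these values describe likeness only.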

How the data were processed

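Kidney RNA of 4 vehicle and 4 BRD4780 mice was sequenced after oligo-dT capture with a stranded TruSeq protocol, per the labels' protocols. The authors deposited expected counts per gene (estimated counts, not normalized), for which the submitters' processing notes name RSEM 1.3.0, STAR 2.5.2b, Picard and the builds mm10 and hg19 without stating their roles. Their strand setting and annotation were not given in the sources used here. The labels' treatment field gave the groups. In the deposited table, 1 column of values matched none of the 8 samples and was left out.

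Of 22121 entries, lines of 343 symbols with identical values were collapsed, which left 21759 genes. Counts were rounded, filtered with filterByExpr (minimum count 10), normalized by TMM and tested in edgeR 4.0.16 (R 4.3.3) by the quasi-likelihood F-test without covariates. P-values were adjusted by Benjamini-Hochberg over 13474 genes with a threshold of 0.05, and this test gave every adjusted p-value for which no other is stated. Standard errors were derived from each log2 fold change and its F statistic. Log2 CPM used a prior count of 0.5. Ratios were tested by exact two-sided permutation over 70 arrangements. No pair of libraries agreed within sampling noise (lowest chi-square per degree of freedom 7.60). A count of 0 allows up to 3 counts, at most 0.523 CPM, for counting error only. Alternatives were DESeq2 1.42.0, RLE and upper-quartile scaling, no filter, thinning to 5738634 counts and leaving out each library.

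The 8 genes, the lists and the rule for named genes were chosen with earlier results of these data known. By that rule the text names the 8 genes, all list genes past the threshold or the 2 of smallest p in a TAL list, up to 2 past it in other marker lists, and the 3 genes nearest in profile to each of the 8 that passed. Others are marked. Results on some list genes are not reported here.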

Additional observations from a re-analysis of the deposited data

How the results depend on the processing

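Kcnj1 and Bsnd were the 2 lower genes of the 8 also under RLE scaling, upper-quartile scaling and no filter. DESeq2 gave 4 (with Umod and Tmem207), and thinning to equal totals gave 1, Kcnj1, with Bsnd at an adjusted p = 0.0551. Leaving out 1 library gave 0 to 3 lower genes of the 8, and 0 higher in every setting run. For the other TAL list genes the main counts were 4 lower and 2 higher. DESeq2 gave 9 lower and 4 higher, and leaving out 1 library gave 1 to 13 lower and 0 to 7 higher. Over all genes, DESeq2 gave 505 lower and 850 higher, against 84 and 310 in edgeR. Leaving out 1 library gave 5 to 1537 lower and 26 to 1647 higher, the highest of each without BRD4780 replicate 3 and the lowest without vehicle replicate 2. The cause of this range was not tested, and each omission also leaves fewer samples. The log2 fold change of Ptger3 ran from -0.15 without BRD4780 replicate 4, where it reversed, to 0.32 without BRD4780 replicate 3. The ratio tests gave 2 of 7 at an unadjusted p under 0.05 in each setting with all 8 libraries. With 1 library left out the ratios were taken as values only, with no test. The numbers in the sample titles share a stem across the groups in 2 cases (vehicle replicate 2 with BRD4780 replicate 1, and vehicle replicate 4 with BRD4780 replicate 2), and the labels do not say what a stem means. Deviations from the group means correlated at 0.01 and -0.28 across genes in these couples. With 2 couples and no others compared, these values cannot tell whether a stem links mice. The main fit used no pairing, as the labels state none. A fit of these 4 libraries with the stem as a replicate block, added after seeing the data and with 1 residual degree of freedom, gave 0 of the 8 genes lower. It gave 22 lower and 19 higher genes over all, and 0 lower and 1 higher among the other TAL list genes. Kcnj1 was at -0.91 (adjusted p = 0.06) and Bsnd at -0.23 (adjusted p = 0.4). The same 4 libraries without the block gave 3 of the 8 genes lower (Kcnj1, Umod and Egf) and 337 lower over all. The ratios were not refitted with the block.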
